A study of Homo sapiens with 6 samples.

Results

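GDF15 and 8 genes of the p53 feedback and damage response, MDM2, MDM4, ZMAT3, TP53INP1, FAS, PHLDA3, RRM2B and AEN, were followed through 41 probe sets of an Affymetrix array. They are 9 of the 18132 genes measured, and their probe sets are 41 of 49395, namely those that the platform annotation gives exactly 1 gene symbol, equal to one of the 9. The genes were picked with their differences between the groups already known, because the GDF15 probe sets differ widely and p53 targets go both ways, so their differences and intervals are given as a description. How many of them passed the threshold of the fit over all genes is given once, beside the share of all genes, and supports nothing. RNA came from cells labelled TPC-1, a human papillary thyroid carcinoma line, infected with lentivirus carrying a control shRNA (3 arrays) or an shRNA against FAM60A (3 arrays), with no other agent named and no time after infection. SINHCAF, formerly FAM60A, belongs to the SIN3-HDAC co-repressor. The labels describe samples within a group as independent without naming separate cultures, and no shRNA sequence or clone is named, so any p-value measures the spread between these samples, which may be technical.

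Each value is a log2 expression value relative to that probe set's own median over the 6 arrays. Such values show differences between arrays and not how much RNA there was, and genes cannot be set against each other by level. In bulk RNA, fewer cells expressing a gene and less RNA per cell cannot be told apart. SINHCAF itself went against the labels, at 0.60 ± 0.0321 (SD, n = 3) under the FAM60A label against -0.64 ± 0.0501 (SD, n = 3) under the control label, 1.24 log2 units higher (limma, adjusted p = 1.08e-06; two-sided exact permutation p = 0.1, the smallest that 3 against 3 arrays allow). The groups are therefore named by label, as FAM60A-labelled and control-labelled arrays, and differences are given as FAM60A-labelled minus control-labelled. If the labels were exchanged, every direction below would be the opposite with respect to the knockdown, and these files do not settle whether they were. The extraction protocol names DLD1, a colorectal line, in place of TPC-1. Over all 18132 genes, 19.8% passed the test as higher and 25.0% as lower (limma, adjusted p under 0.05). Of 11 thyroid markers 1 had a probe set at a log2 level of 8 or more, and 0 passed as higher and 1 as lower, with summed values from 0.38 to 0.68 in the control-labelled arrays and from -0.63 to -0.50 in the FAM60A-labelled ones. Of 11 intestinal markers 3 had such a probe set and 6 (54.5%) were higher and 0 lower, with sums from -4.27 to -3.68 in the control-labelled arrays and from 3.80 to 3.86 in the FAM60A-labelled ones. Leukocyte, endothelial and fibroblast markers gave 2 of 10, 1 of 7 and 0 of 8 higher and 0 lower in each list. The 6 ribosomal RNA control probe sets were lower by 0.34 to 0.66 on the log2 scale, whereas the 3′ minus 5′ difference of GAPDH and ACTB control probe sets differed by -0.01 and -0.03. The part of these markers and of the ribosomal signal in the differences below was not tested.

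The p53 protein is a transcription factor held low by MDM2, a ubiquitin ligase, together with its relative MDM4, and MDM2 is itself a p53 target, which closes a negative feedback loop. When p53 is stabilised it raises genes of arrest, repair and death, among them the other genes described here. GDF15 is a secreted ligand of the TGF-beta superfamily that signals through the receptor GFRAL with RET. It is a p53 target and is also raised by ATF4 and CHOP (DDIT3) in the integrated stress response, and in many epithelial tissues it is known as a marker of cell stress.

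RefSeq promoter windows of GRCh38.p14, running from 250 bases before to 50 bases after an annotated start, were matched for 6 of the 9 genes. They are shown because they set the p53-type sequence of GDF15 beside those of genes that moved less or the other way. Capitals mark the 20-base stretch closest to 2 adjoining copies of the 10-base p53 consensus, which reads the same on both strands, allowing at most 3 mismatches in all, a limit chosen after the exact consensus had been searched. For GDF15 the stretch lies in the transcribed part, at bases 29 to 48 after the start (chr19:18386186-18386205, plus strand) and differs from the consensus at 3 of 20 bases. For MDM2, FAS and AEN the 250 bases before a start are shown, on the plus strand at chr12:68808767-68809016, chr10:88991181-88991430 and chr15:88621090-88621339, and each stretch differs at 2 of 20 bases. The MDM2 window precedes the downstream start of the gene, known as its p53-responsive promoter.
GDF15: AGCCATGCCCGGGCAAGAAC
MDM2: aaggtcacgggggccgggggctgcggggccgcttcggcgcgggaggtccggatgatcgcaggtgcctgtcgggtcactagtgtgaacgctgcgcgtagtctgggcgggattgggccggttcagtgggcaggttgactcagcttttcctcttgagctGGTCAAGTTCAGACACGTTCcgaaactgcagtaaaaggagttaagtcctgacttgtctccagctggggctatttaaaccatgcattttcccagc
FAS: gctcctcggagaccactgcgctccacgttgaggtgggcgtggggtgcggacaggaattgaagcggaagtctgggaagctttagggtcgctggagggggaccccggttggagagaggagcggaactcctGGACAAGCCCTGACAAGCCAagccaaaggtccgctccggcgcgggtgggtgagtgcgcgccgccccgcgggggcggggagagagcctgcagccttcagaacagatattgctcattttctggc
AEN: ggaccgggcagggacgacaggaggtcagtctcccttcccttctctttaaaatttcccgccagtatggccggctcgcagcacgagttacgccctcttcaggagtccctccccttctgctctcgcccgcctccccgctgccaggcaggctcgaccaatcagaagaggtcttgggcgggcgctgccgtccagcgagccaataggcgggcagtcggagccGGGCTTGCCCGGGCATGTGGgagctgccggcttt
Counted from the start, the stretches lie at -94 to -75 in MDM2, at -122 to -103 in FAS and at -34 to -15 in AEN. Such a stretch was found in 4 of the 6 genes with a window, and in 6.39% of all 27305 genes of the promoter table. Among 81 other p53 target genes with a window, measured or not, 22 (27.2%) held one. The 6 genes have 12 windows, and all 27305 genes have 35116, so more windows per gene were searched in the 6. The exact 10-base consensus occurred in FAS and AEN only, among the 6, and in 8.06% of all genes. MDM4 and ZMAT3 held neither in these windows, which says nothing about sites elsewhere. The GDF15 window also held TATAAA, found in 14.0% of all genes, GGGCGG (48.3%) and CCAAT (39.7%), each searched on both strands, and no TGATGNAAN (4.45%), a form of the ATF4 and C/EBP element. The genes with a p53-type stretch did not share a direction, as GDF15 and AEN had higher values, MDM2 lower ones and FAS a small positive difference. These matches are letters in a window and not measured binding.

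GDF15 had the largest difference of the 9 genes. The mean of its 5 probe sets was -1.05, -1.05 and -1.03 in the control-labelled arrays and 1.19, 1.09 and 1.07 in the FAM60A-labelled ones. The groups lay far apart; the control-labelled arrays spanned -1.05 to -1.03 and the others 1.07 to 1.19. The log2 difference was 2.16 ± 0.0391 (SE, n = 3 per group), which is 4.47-fold with a 95% confidence interval of 4.19 to 4.76, and it ranked 16 of 18132 genes by signed difference and also by absolute difference. That fold rests on averaging probe sets that disagree in size though not in direction.

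**Figure D1:**
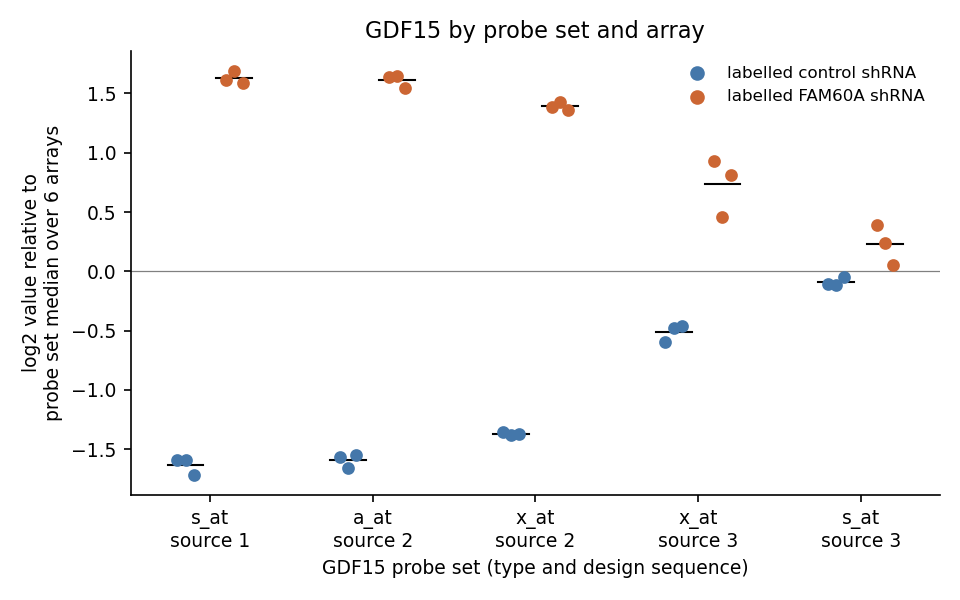
GDF15 by probe set, with the log2 value relative to the probe set median on the vertical axis, 1 point per array and a line at each group mean. The 3 probe sets on the left differ by 2.77 to 3.26 between the groups and the 2 on the right, built on one shared design sequence, by 1.24 and 0.32.

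The probe set with the largest GDF15 difference read -1.59, -1.59 and -1.72 in the control-labelled arrays and 1.61, 1.69 and 1.59 in the FAM60A-labelled ones, a difference of 3.26 ± 0.0532 (SE, n = 3 per group), or 9.61-fold. A second, designed on a RefSeq transcript, read -1.57, -1.66 and -1.55 against 1.64, 1.65 and 1.55, a difference of 3.20 and 9.21-fold. The third, from the same RefSeq transcript, read -1.36, -1.38 and -1.37 against 1.39, 1.43 and 1.36, or 2.77 and 6.81-fold. All 3 thus gave nearly the same split in each array. The other 2, built on a single sequence record different from those of the first 3, gave smaller steps. One read -0.60, -0.48 and -0.46 against 0.93, 0.46 and 0.81, a difference of 1.24 ± 0.118 (SE, n = 3 per group), and the other read -0.11, -0.12 and -0.05 against 0.39, 0.24 and 0.05, a difference of 0.32 ± 0.0825 (SE, n = 3 per group). In the last the closest arrays of the groups were 0.05 and -0.05, yet the groups still did not overlap.

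The span of 2.94 log2 units between the GDF15 probe sets was the widest of the 11734 genes with several probe sets, whose median span was 0.19, and that width is one of the reasons the gene was chosen. Rounding of the deposited values gives a coarse class of the level before centring. It put the 2 GDF15 probe sets of small difference at log2 levels of 4 to 8, above the class of 2 to 4 that held 16 of 17 control tags without a target, and could not be read for the 3 of large difference. Reading it takes at least 4 array values under 1 in absolute size, and all values of those 3 lay beyond 1. Keeping only probe sets of level 4 or more thus dropped these 3 for the size of their difference, not for a low level. The gene difference from the other 2 was 0.78. With the arrays quantile normalized again and all probe sets kept, the gene difference was 1.80.

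The genes whose 6 array values lay nearest to those of GDF15, among genes with at least 2 probe sets, were ASS1 (root mean square difference 0.0714 over 6 arrays), which encodes argininosuccinate synthase, PKM (0.0777), pyruvate kinase M, ID1 (0.0963), a BMP-responsive inhibitor of helix-loop-helix factors, SRP14 (0.103), of the signal recognition particle, and LGR5 (0.107), a Wnt-associated stem cell receptor. Their log2 differences ran from 1.98 to 2.28. LGR5 is also one of the intestinal markers above. Its difference was 1.28 with probe sets of level 4 or more, a rule that dropped its other probe set, at 2.71. For the GDF15 probe set of largest difference the nearest was another GDF15 probe set (0.079), followed by one of SEL1L3 (0.134) and one of DDIT4 (0.141), a stress-induced inhibitor of mTORC1, with log2 differences of 3.06 and 3.01. With 2 groups, such likeness mostly reflects the size of the difference between them.

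MDM2, the ubiquitin ligase of p53, had lower values in the FAM60A-labelled arrays. Its gene mean was 0.23, 0.16 and 0.11 in the control-labelled arrays and -0.20, -0.20 and -0.18 in the FAM60A-labelled ones. The groups did not overlap and the FAM60A-labelled arrays lay close together. The log2 difference was -0.36 ± 0.0384 (SE, n = 3 per group), with a 95% confidence interval of -0.45 to -0.27, which is 1.29-fold lower. All 11 probe sets had negative differences, from -0.65 to -0.11. In 9 the groups did not overlap, where 50.8% of all probe sets with 1 symbol had no overlap. Of the 11, 4 lay in the lowest level class, the one that holds the control tags, and without them the difference stayed at -0.36. The probe set designed on the RefSeq transcript read 0.19, 0.10 and 0.09 against -0.09, -0.27 and -0.09, a difference of -0.28. Control replicate 1 was the highest control array in 6 of the 11 probe sets, most of all in one that read 0.53 there against 0.17 and 0.03 in the other 2, and without that array the gene difference was -0.33. Some of these probe sets share a design sequence, so they are not independent readings.

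MDM4, the relative of MDM2 that binds p53 and pairs with MDM2, split by probe set. Its gene mean was 0.13, -0.01 and -0.02 against -0.02, 0.00 and -0.04, and the groups overlapped, with a difference of -0.05 ± 0.0463 (SE, n = 3 per group) and an interval of -0.16 to 0.06. Of 6 probe sets, 3 had positive and 3 negative differences. One of the a_at type, a design meant to match several transcripts of a gene, read 0.40, 0.21 and 0.19 against -0.19, -0.25 and -0.19, a difference of -0.48. Another, the only one of the 6 at a level of 8 or more, read 0.07, 0.06 and 0.19 against -0.10, -0.06 and -0.20, or -0.22. A probe set designed on the RefSeq transcript, of the x_at type whose probes may also bind other transcripts, went the other way, at -0.02, -0.08 and -0.17 against 0.19, 0.18 and 0.02, a difference of 0.22. In these 3 the groups did not overlap, whereas in the other 3, at 0.17, 0.15 and -0.14, they did. Across all genes, 833 had probe sets without overlap in both directions.

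**Figure D2:**
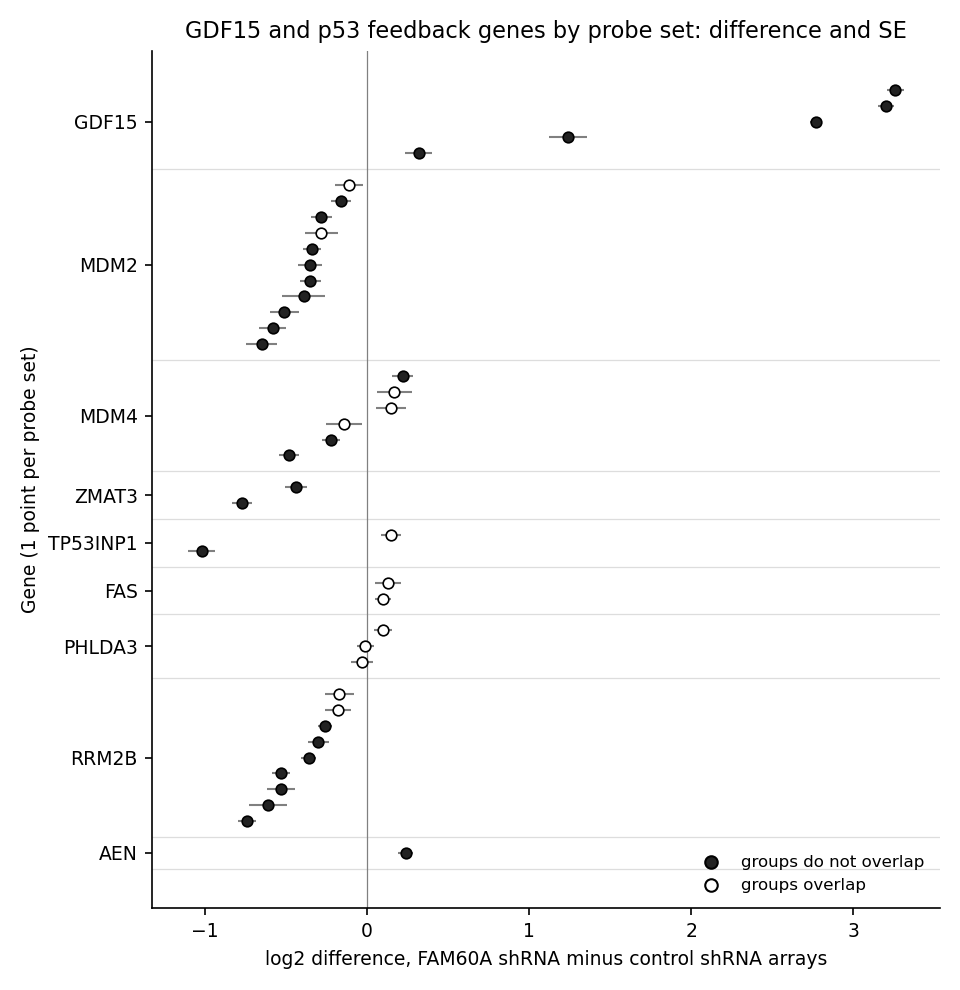
The log2 difference, FAM60A-labelled minus control-labelled arrays, with its SE for each of the 41 probe sets, grouped by gene. Filled points mark the 28 probe sets whose groups did not overlap, 7 higher and 21 lower. Of all probe sets with 1 symbol, 50.8% had no overlap, counting both directions. The GDF15 points span 0.32 to 3.26.

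ZMAT3, an RNA-binding zinc finger protein that p53 raises, was lower in both of its probe sets. The gene mean was 0.23, 0.40 and 0.27 against -0.29, -0.30 and -0.34, so the groups lay well apart. The log2 difference was -0.61 ± 0.0505 (SE, n = 3 per group), or 1.52-fold lower with an interval of 1.40 to 1.66. The probe set on the RefSeq transcript read 0.30, 0.48 and 0.39 against -0.44, -0.30 and -0.41, a difference of -0.77, and the other gave -0.44.

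TP53INP1, a stress-induced protein that promotes p53 activity and autophagy, showed a fall in one probe set only. That one, designed on a RefSeq transcript, read 0.43, 0.39 and 0.56 against -0.39, -0.66 and -0.61, a difference of -1.02 ± 0.083 (SE, n = 3 per group) and the largest negative difference of the 41. The other, on a different sequence record, read -0.12, 0.01 and -0.15 against 0.05, -0.01 and 0.14, with overlapping groups and a difference of 0.15. Both lay in the level class of 4 to 8. Their average of -0.43 ± 0.0467 (SE, n = 3 per group) describes neither. A span as wide as the 1.17 between them was found in 1.30% of genes with several probe sets.

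RRM2B, the p53-inducible small subunit of ribonucleotide reductase that supplies nucleotides for repair, was lower in all 9 of its probe sets. The gene mean was 0.20, 0.16 and 0.27 against -0.16, -0.24 and -0.19, and the groups did not overlap. The log2 difference was -0.41 ± 0.0411 (SE, n = 3 per group), or 1.33-fold lower with an interval of 1.24 to 1.42. Probe sets ran from -0.74 to -0.17, and 7 of 9 had no overlap, against 50.8% of all probe sets with 1 symbol. The probe set with the largest difference read 0.32, 0.36 and 0.43 against -0.34, -0.45 and -0.32. The 2 with overlap were among the 5 in the lowest level class, and without that class the gene difference was -0.53.

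FAS, the death receptor that p53 raises, PHLDA3, a pleckstrin-homology protein that restrains AKT, and AEN, a nuclease of p53-driven cell death, had differences of 0.24 or less. AEN has 1 probe set, at a level of 8 or more, and read -0.13, -0.13 and -0.06 against 0.14, 0.18 and 0.06. Its groups did not overlap, and its log2 difference was 0.24 ± 0.0422 (SE, n = 3 per group), or 1.18-fold. The FAS gene mean was -0.05, -0.15 and -0.06 against 0.01, 0.08 and 0.00, a difference of 0.12 ± 0.041 (SE, n = 3 per group). In each of the 2 FAS probe sets the groups overlapped, with differences of 0.13 and 0.10, and only their average kept the groups apart. PHLDA3 read -0.09, 0.01 and 0.03 against 0.03, 0.03 and -0.06, a difference of 0.02 with an interval of -0.09 to 0.13, and its groups overlapped in all 3 probe sets. That sign is not stable, as the difference was -0.03 under 2 other probe set rules and -0.02 without control replicate 1.

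**Figure D3:**
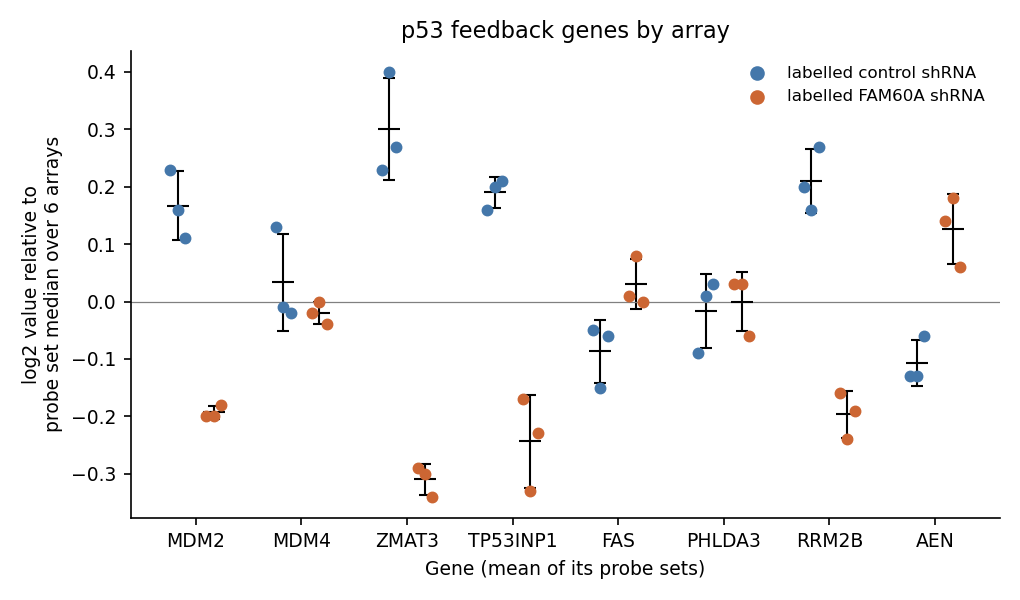
Gene means of the 8 p53 feedback genes in each array, as log2 values relative to the probe set median, with bars for the group mean and SD (n = 3). MDM2, ZMAT3, TP53INP1 and RRM2B lie lower in the FAM60A-labelled arrays, AEN higher, FAS slightly higher, and MDM4 and PHLDA3 overlap.

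Over the 9 genes, 6 had an adjusted p under 0.05 in the fit across all genes, where 44.9% of the 18132 genes had one (limma). They were 2 higher, GDF15 and AEN, against 19.8% of all genes, and 4 lower, MDM2, ZMAT3, TP53INP1 and RRM2B, against 25.0%. Of 9 genes, 1, GDF15, differed by at least 2-fold, against 1.49% of all genes. The groups did not overlap in 7 genes, against 53.2% of all genes, and in 28 of 41 probe sets, against 50.8% of probe sets with 1 symbol. Since the 9 genes were picked from this comparison, nothing is read from these counts. Their median log2 difference was -0.05, beside -0.0115 over all genes.

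Other p53 target genes, in a list of 93 drawn from general knowledge, included genes with higher and genes with lower values. The list was chosen with earlier results of these data known, among them that p53 targets go both ways, so its counts are a description. Among the 88 with a value there were 37 rises, 23 falls and 28 that missed the threshold (limma, adjusted p under 0.05 over all genes), that is 42.0% higher and 26.1% lower, where 19.8% and 25.0% of all genes were. All genes include those at the lowest levels, whereas only 2 of the 88 had all probe sets in the lowest level class. With probe sets of level 4 or more, 38 of 86 targets rose and 22 fell, and 56.6% of all 14605 genes passed in either direction. The median log2 difference of the list was 0.07. The 2 largest rises were in inducers of cell death, PMAIP1 (NOXA) at 1.26 ± 0.0371 (SE, n = 3 per group) and BBC3 (PUMA) at 1.21 ± 0.0414, both BH3-only proteins that act on mitochondria. Of 20 genes of cell death, 8 rose and 3 fell. PERP (1.02), a membrane protein of desmosomes and apoptosis, and the RNA sensor TLR3 (0.69) also rose. The single TLR3 probe set lies in the lowest level class, that of the control tags.

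**Figure D4:**
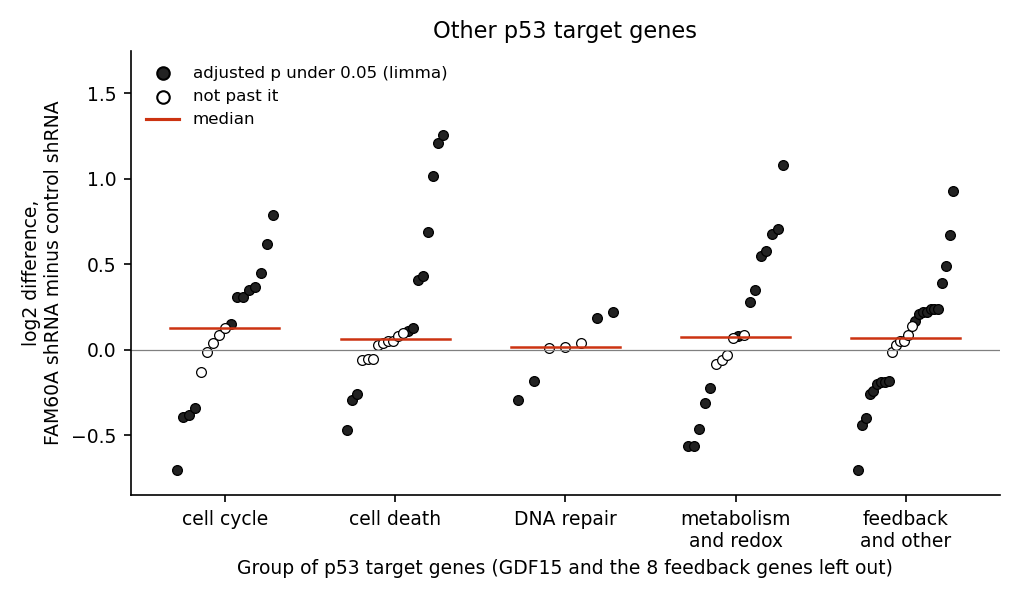
Log2 differences, FAM60A-labelled minus control-labelled arrays, of the 88 other p53 target genes in 5 groups, 1 point per gene with the median as a line. Filled points passed the test, 37 (42.0%) higher and 23 (26.1%) lower, against 19.8% and 25.0% of all genes. The group medians lie between 0.02 and 0.13.

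Among 17 cell cycle and growth targets 8 (47.1%) rose and 4 (23.5%) fell, where 19.8% and 25.0% of all genes did. GADD45A (0.79), a stress sensor, SFN (0.62), the 14-3-3 sigma protein of the G2 checkpoint, and the ligand KITLG (0.45, and 1.14 in the probe set of largest variance) rose, and SUSD6 fell by 0.70. CDKN1A, which encodes the p21 inhibitor of cyclin-dependent kinases and is the classical p53 target, read -0.15, -0.14 and -0.17 against 0.17, 0.16 and 0.13. Its groups lay apart by a small step, a difference of 0.31 ± 0.0297 (SE, n = 3 per group; limma, adjusted p = 0.00013), or 1.24-fold.

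Of 18 metabolic and redox targets 8 (44.4%) rose and 5 (27.8%) fell, where 19.8% and 25.0% of all genes did. The 4 of largest absolute difference rose, namely STEAP3 (1.08), a ferrireductase, SESN2 (0.71), a sestrin that restrains mTORC1, CMBL (0.68) and INPP1 (0.58). The falls ran from -0.56 to -0.22. Of 7 targets grouped under DNA repair, not all of them repair factors, 2 (28.6%) rose and 2 (28.6%) fell. TRIM32 (0.22) and the nucleotide excision repair gene DDB2 (0.19) rose, and POLH (-0.29), the translesion polymerase eta, and FBXO22 (-0.18) fell. The remaining 26 gave 11 (42.3%) higher and 9 (34.6%) lower, with SYTL1 (0.93), RAP2B (0.67) and IER5 (0.49) higher and CPEB4 (-0.70) lower. PPM1D (WIP1), a phosphatase that, like MDM2, shuts p53 off and is itself a p53 target, read 0.26, 0.14 and 0.13 against -0.20, -0.28 and -0.17. It fell by 0.40 on the log2 scale (SE 0.0499, n = 3 per group; limma, adjusted p = 0.000479). The p53-type 20-base stretch was present in 20 of 77 measured targets with a promoter window. Of those 20, 9 rose and 3 fell with a median of 0.08, and of the 57 without it 25 rose and 17 fell with a median of 0.09.

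Of 16 kinases, acetyltransferases and cofactors of p53 measured, 7 (43.8%) rose and 4 (25.0%, the share of all genes) fell, with a median of 0.10. Here and in the lists that follow, the share of all genes takes in genes at the lowest levels too. The acetyltransferases CREBBP (0.83, and 0.48 without x_at and s_at probe sets) and EP300 (0.57) and the kinase HIPK2 (0.50), which phosphorylates p53, rose. Of 20 partners of MDM2 and MDM4, 6 (30.0%) rose and 8 (40.0%) fell, with a median of 0.02. RCHY1 (PIRH2), another ubiquitin ligase of p53, read 0.39, 0.37 and 0.39 against -0.37, -0.52 and -0.41 and fell by 0.82. The MDM2-binding protein MTBP (-0.45) and NUMB (-0.38) fell as well.

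Of 17 genes of GDF15 reception, processing and induction, 10 (58.8%) rose and 4 (23.5%, near the share of all genes) fell, with a median of 0.24. TRIB3 (0.77), CEBPB (0.74), SP1 (0.65), DDIT3 (0.61) and ATF4 (0.49), transcription factors or targets of stress signalling, rose. ATF4 read -0.26, -0.27 and -0.21 against 0.21, 0.25 and 0.25, and DDIT3 -0.38, -0.30 and -0.31 against 0.28, 0.28 and 0.27, so that both separated the groups in every array. Of 14 FAS pathway genes 8 (57.1%) rose and 4 (28.6%) fell, with a median of 0.16. PTPN13 (1.05), a phosphatase that binds FAS, and FAIM (0.45), an inhibitor of FAS-driven death, rose, and DIABLO (-0.43), which relieves caspase inhibition, fell.

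Of 11 genes of ribonucleotide reduction and nucleotide supply, 3 (27.3%) rose and 7 (63.6%) fell, with a median of -0.23. RRM2, the S-phase small subunit whose place RRM2B takes outside S phase, read -0.15, -0.22 and -0.21 against 0.22, 0.19 and 0.17, a rise of 0.38 where RRM2B had -0.41. The nucleotide kinases CMPK1 (-0.53) and DTYMK (-0.43) fell. Of 12 relatives of the 9 genes by sequence or family, 4 (33.3%) rose and 1 (8.33%) fell, where 19.8% and 25.0% of all genes did. The 41.7% past the threshold in either direction lay near the 44.9% of all genes. PHLDA2 (1.24) and PHLDA1 (0.82) rose where PHLDA3 had 0.02, the exonuclease ISG20 (0.89), related to AEN, rose, as did GDF11 (0.62) of the TGF-beta superfamily, and the zinc finger gene ZMAT5 (-0.73) fell. ZMAT1 (-0.08), ZMAT2 (0.09), ZMAT4 (-0.12), TP53INP2 (0.03), ISG20L2 (0.07), MSTN (-0.11) and INHBA (-0.08) missed the threshold.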

How the data were processed

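Expression was measured in 6 samples, 1 Affymetrix array each, with biotin-labelled RNA. Titles gave the groups, 3 arrays in each. The deposited values are log2 expression values made by the authors with RMA, per the submitters' processing notes. The logarithm is assumed to have base 2, as RMA output does. Each probe set had a median of 0 over the arrays to within 5e-07, so it had been centred. Program version and chip description: not given in the sources used here. Centring leaves differences intact and hides levels. Of 49395 probe sets, 44988 had 1 symbol, 1832 several, 2473 none, and 102 were controls. Gene values are means of probe sets with 1 symbol (18132 genes).

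Groups were compared with lmFit and eBayes (limma 3.58.1, R 4.3.3) over all genes or probe sets, with Benjamini-Hochberg adjustment and a threshold of 0.05. The SE and 95% intervals come from that fit. Precision is limited by having 3 arrays per group, and the script was tested on simulated data.

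Levels were classed from the rounding step of single-precision values, which doubles at 2, 4, 8 and 16. A class was read only for probe sets with at least 4 array values under 1 in absolute size. Probe sets with a large difference could therefore lack a class whatever their level. In 775 probe sets the step was that of levels of 16 or more, which RMA values do not normally reach, so the classes are approximate.

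The 9 genes and the lists were chosen with earlier results of these data known. The text names the 9 genes, SINHCAF, up to 4 genes per group of p53 targets and 3 per partner list with the largest absolute difference past the threshold, the relatives, CDKN1A, PPM1D, ATF4, DDIT3, the 5 genes nearest to GDF15 with at least 2 probe sets, and the 3 probe sets nearest to its probe set of largest difference. RefSeq (GRCh38.p14) gave promoter sequences only. Alternatives were other probe set rules, scalings, robust eBayes, a replicate block and leaving out each array.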

Additional observations from a re-analysis of the deposited data

How the results depend on the processing

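The 9 genes kept the sign of their differences under other probe set rules, scalings and the robust fit, except PHLDA3, whose difference of 0.02 was -0.03 under 2 probe set rules. The GDF15 difference of 2.16 was 3.26 with the probe set of largest variance and 3.20 without x_at and s_at probe sets. It was 1.80 after another quantile normalization and 2.12 to 2.18 with 1 array left out. With probe sets of level 4 or more it was 0.78, since that rule drops the GDF15 probe sets of large difference because of that difference. The counts of p53 targets, 37 higher and 23 lower, ran from 34 to 37 and from 21 to 23 with 1 array left out and, under the other settings, from 35 to 42 (cyclic loess) and from 22 to 23. The partner lists, 65 genes past the threshold in all, gave 57 to 63 with 1 array left out and 55 (without x_at and s_at probe sets) to 67 (level 4 or more) otherwise. SINHCAF kept its rise, at 1.22 to 1.27 with 1 array left out. Under the other settings it ran from 1.12 (another quantile normalization) to 1.31 (largest variance, and without x_at and s_at probe sets). Correlations of deviations between arrays of the same replicate number were 0.16, 0.06 and 0.08, and between arrays of different numbers they ran from -0.10 to 0.04. All are small, and whether the numbers stand for a pairing was not tested. With the replicate block the p53 targets gave 35 higher and 23 lower and all genes 8170 past the threshold, against 8136 without. Of the 6 genes with a promoter window, 2 held an exact p53 consensus, and 4 held the longer stretch with mismatches, which was chosen after seeing the data. Among the other named genes, INHBA was 0.04 with probe sets of level 4 or more and ZMAT1 0.02 without x_at and s_at probe sets, both short of the threshold. With the probe set of largest variance the differences of CPEB4 (-1.22), FBXO22 (-0.41), HIPK2 (0.99), KITLG (1.14), PERP (1.80), POLH (-0.58) and TRIM32 (0.37) were over 1.5 times as large. Without x_at and s_at probe sets POLH was -0.16 and CREBBP 0.48. With level 4 or more KITLG was 0.69, and LGR5 was 1.28 after its probe set of 2.71 was dropped. TLR3, ZMAT1 and MSTN, all in the lowest class, had no value. ASS1 (2.11) and PKM (2.28) had none either. There a large difference can leave the class unread, so this need not mean a low level. ISG20L2 passed after another quantile normalization and after cyclic loess, and MSTN without replicate 3 of the arrays labelled control shRNA. Centred values do not show how far a probe set lies above background.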
